A study of Mus musculus with 135 samples.

Results

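The genes described are 8 components of the nuclear lamina and the inner nuclear envelope, *Lmna*, *Lmnb1*, *Lmnb2*, *Lbr*, *Sun1*, *Sun2*, *Tmpo* and *Banf1*. They were chosen by name with earlier results of these data known, and all 8 are among the 15181 genes of the read count table. Haematopoietic stem cells (HSCs) were sorted as viable Lin-Sca-1+c-Kit+ (LSK) CD150+CD48- bone marrow cells, the young ones from 1 mouse aged 2 to 3 months and the old ones from 1 mouse aged 20 to 25 months. Both were C57BL/6 mice carrying the *Vwf-eGFP* reporter, in which green fluorescence marks platelet-primed HSCs, and no other allele or treatment is stated. Single cells were captured on microfluidic chips, their polyadenylated RNA was amplified as full-length cDNA, and 61 young and 74 old cells were sequenced, of which the 52 young and 62 old cells that met the limits in the study's methods were used here.

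The nuclear lamina is a meshwork of intermediate filaments under the inner nuclear membrane that gives the nucleus its shape and anchors silent chromatin at its edge. *Lmna* encodes the A-type lamins A and C, which stiffen the nucleus, and *Lmnb1* and *Lmnb2* encode the B-type lamins, which stay attached to the membrane through a lipid anchor. The lamin B receptor (*Lbr*) and the lamina-associated polypeptides made from *Tmpo* tie lamins to chromatin, the SUN proteins (*Sun1* and *Sun2*) connect the lamina to the cytoskeleton through nesprins, and the barrier-to-autointegration factor (*Banf1*) cross-links DNA to membrane proteins when the nucleus reforms after mitosis. In blood-forming cells the make-up of the lamina is known to shift with lineage and maturation, and in dividing cells the whole envelope is taken apart and rebuilt.

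Each age is 1 mouse, so cells are not replicates, no test between the ages was made, and age, mouse and capture run cannot be told apart. Sex-linked transcripts differed between the young and the old mouse. *Xist* was above the limit used in 50 young and 8 old cells, and any of 4 Y-linked genes in 2 and 58. Sex therefore cannot be told apart from age either, and each old minus young difference below also carries it. A young cell held between 273236 and 5688706 counted reads and an old cell between 276316 and 4086659, and the median cell expressed 4116 genes in the young and 3902 in the old mouse. The level of a gene in a cell is log2(CPM + 1), where CPM (counts per 1000000) is the gene's share of that cell's counted reads, and a gene counted as expressed above a level of 2. Differences are old minus young in mean level. The sorted identity was visible in the HSC genes *Kit* (expressed in 49 young and 61 old cells), *Meis1* (52 and 62) and *Hlf* (49 and 55), with *Cd48* in 1 and 0. *Slamf1*, which encodes the sorted CD150, was above the limit in only 9 young and 15 old cells. Other listed HSC genes were also above it in only part of the cells, with *Fgd5* in 6 young and 14 old, *Procr* in 11 and 24 and *Ly6a* in 28 and 43. Of the defining markers of other cells, *Vpreb1*, *C1qa*, *C1qc* and *Hba-a1* were expressed in 0 cells of either age and *Elane* in 0 young and 1 old. Other listed markers were not absent, with *Cd79b* (B cells) in 12 young and 16 old cells, *Cd3d* (T cells) in 16 and 16, *Nkg7* (NK cells) in 10 and 15, *Cd68* (macrophages) in 6 and 5, *Prtn3* (early myeloid cells) in 38 and 59, and *Emcn* and *Eng*, endothelial genes that HSCs are also known to express, in 20 and 7 and in 18 and 36. Of 8 listed markers each, the summed level over those measured reached 10.1 in young and 9.64 in old cells for B cells (2 markers), 13.9 and 13.1 for T and NK cells (4), 26.4 and 21.6 for granulocytes (5), 10.4 and 8.16 for macrophages (4) and 10.5 and 6.53 for erythroid cells (4), and for 5 of 6 endothelial markers it reached 20.2 and 26.7. The lowest sum was 0 in both ages for all lists except granulocytes in old cells (0.464), and the part of these genes in the results was not tested.

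On mouse GRCm38 (mm10), by the RefSeq annotation, the lamin genes lie on chromosome 3 (*Lmna*, 88481148 to 88509932), chromosome 18 (*Lmnb1*, 56707813 to 56753424) and chromosome 10 (*Lmnb2*, 80901363 to 80918245). *Lbr* lies on chromosome 1 (181815315 to 181842401), *Sun1* on chromosome 5 (139200564 to 139249839), *Sun2* on chromosome 15 (79724068 to 79742536), *Tmpo* on chromosome 10 (91147571 to 91181752) and *Banf1* on chromosome 19 (5364633 to 5366876). *Banf1* shares 64 bases with the 5′ end of *Eif1ad*, and no source used here says how reads from that stretch were counted. Counts are per gene, so lamin A and lamin C, and the forms of the *Tmpo* protein, were not separated.

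Of the 8 genes, 7 had a lower mean level in old cells and 1, *Sun1*, a higher one, with a median difference of -0.85, against -0.02 over all 15014 genes with a read in these cells. Of those 15014 genes, 8071 were lower and 6943 higher in old cells. *Lbr*, *Tmpo*, *Banf1* and *Sun2* were lower by at least 1 on the log2 scale. Over all genes, 4.49% were lower by at least 1 in old cells and 3.91% were higher by as much, and among the 9374 genes that 10% or more of the cells expressed these shares were 6.98% and 6.24%. None of the 8 was higher by at least 1.

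**Figure D1:**
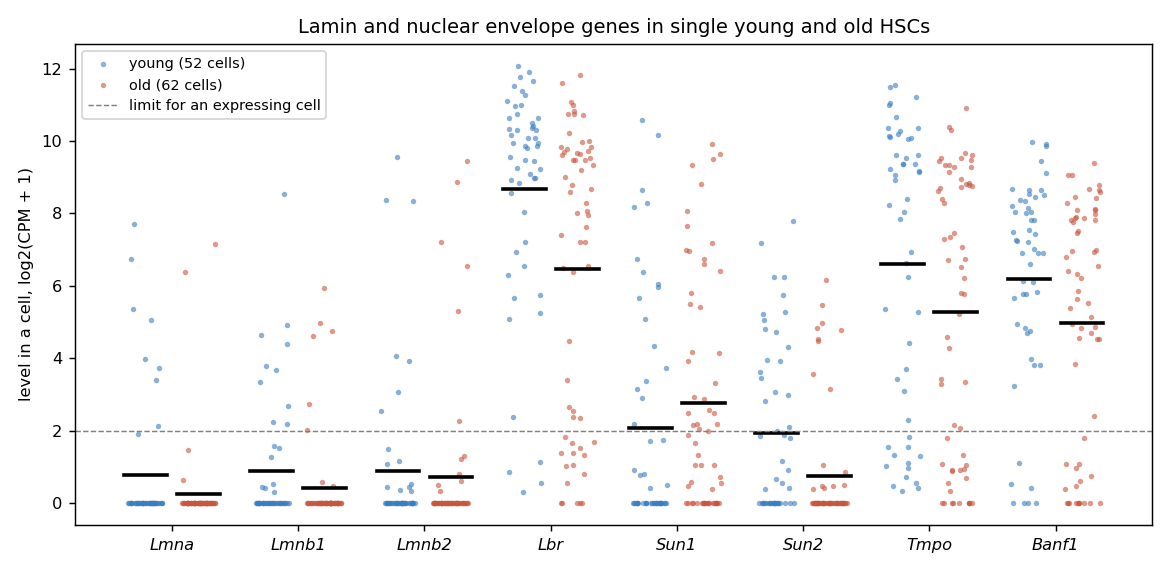
Each point is 1 cell, with its level as log2(CPM + 1) on the vertical axis, 52 young cells in blue and 62 old cells in red for each of the 8 genes, black bars at the means and a dashed line at the limit of 2. *Lbr*, *Tmpo* and *Banf1* were high in most cells of both ages, with more old than young cells near 0, while the 3 lamin genes were at 0 reads in most cells.

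*Lbr* was the most abundant of the 8 and the one with the largest difference. Its level in young cells had a lowest value of 0.32, a median of 9.84 and a highest of 12.08, and in old cells a lowest of 0, a median of 8.04 and a highest of 11.83. The ranges of the 2 ages overlapped almost fully, and they differed mainly in how many cells lay low, with 4 of 52 young and 16 of 62 old cells at or below the limit and 39 and 32 above a level of 8. The mean was 8.67 ± 3.06 (SD over 52 cells) in young and 6.47 ± 3.98 (62 cells) in old cells, a difference of -2.20, place 21 of 15014 counted from the lowest difference. *Lbr* was expressed in 92.3% of young cells (95% exact interval 81.5 to 97.9) and 74.2% of old cells (61.5 to 84.5). Its reads summed to 148094 (95% Poisson interval 147341 to 148850) over the young and to 65466 (64965 to 65969) over the old cells, which is 1019 and 521 CPM of the summed counts. These reads carry no molecular identifiers, so the intervals cover counting error only. Among cells that expressed *Lbr*, the mean level was 9.34 in young and 8.42 in old cells.

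*Tmpo*, which encodes the LAP2 proteins, had a second broad distribution. Young cells had a lowest level of 0.33, a median of 8.32 and a highest of 11.54, and old cells 0, 6.36 and 10.92. The mean was 6.61 ± 3.93 (SD, 52 cells) and 5.29 ± 3.85 (62 cells), a difference of -1.32. The share of expressing cells differed less than for *Lbr*, with 75% of young cells (61.1 to 86) and 67.7% of old cells (54.7 to 79.1), and these intervals overlapped. Within the expressing cells the mean level was 8.48 in young and 7.56 in old cells, and the summed reads, 578 CPM in young and 263 CPM in old cells, stood in a ratio of 2.19. No young cell was without a read of *Lbr* or *Tmpo*, whereas 5 old cells held none of *Lbr* and 9 none of *Tmpo*.

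*Banf1*, the small DNA-bridging protein, ran from 0 to 9.96 in young cells with a median of 7.12, and from 0 to 9.40 in old cells with a median of 5.75. It was expressed in 45 of 52 young (86.5%, interval 74.2 to 94.4) and 44 of 62 old cells (71%, interval 58.1 to 81.8). Its mean level was 6.20 ± 2.86 (SD, 52 cells) and 4.98 ± 3.29 (62 cells), a difference of -1.22, and in expressing cells alone 7.12 and 6.86, so most of the difference lay in the number of cells above the limit. Its neighbour *Eif1ad* had means of 2.13 and 1.82.

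**Figure D2:**
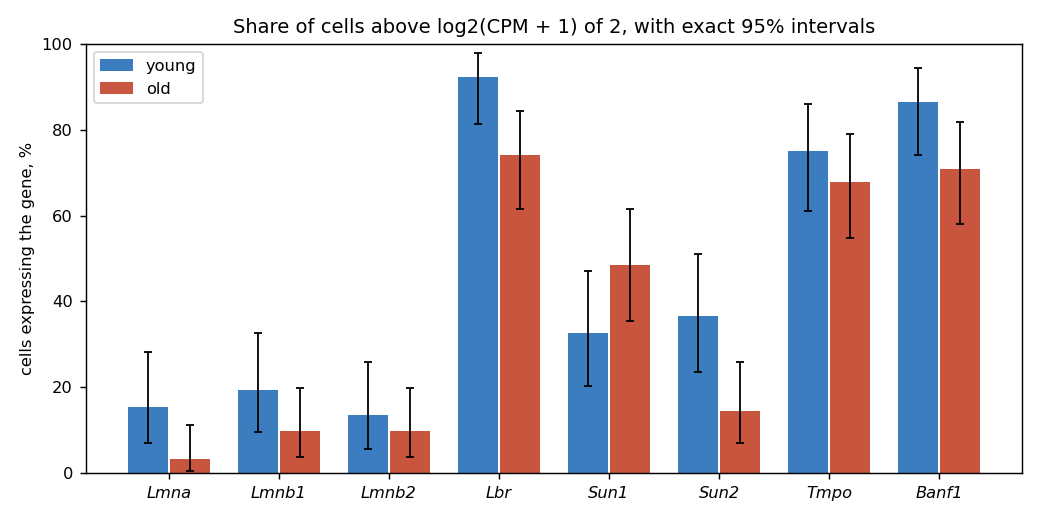
Bars give the percent of cells with a level above 2 in 52 young (blue) and 62 old (red) cells for each gene, and lines the exact 95% intervals, which cover counting error only. The intervals of the ages overlapped for all 8 genes, and *Sun1* was the 1 gene with a larger share in old cells.

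The SUN genes went in opposite directions. *Sun2* had a lowest, median and highest level of 0, 0.61 and 7.78 in young cells and 0, 0 and 6.15 in old cells. It was expressed in 19 of 52 young (36.5%, interval 23.6 to 51) and 9 of 62 old cells (14.5%, interval 6.86 to 25.8), with mean levels of 1.93 ± 2.34 (SD, 52 cells) and 0.74 ± 1.67 (62 cells), a difference of -1.18. In the cells that expressed it the mean level was 4.66 in both ages, so the difference in mean level lay mainly in the number of expressing cells. Summed reads of *Sun2* were 20.6 CPM in young and 3.65 CPM in old cells, and 1 young cell, B7, held 41.5% of the young reads. The log2 ratio of summed counts was -2.5, and -2 without the highest cell of each age.

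*Sun1* had a lowest, median and highest level of 0, 0 and 10.57 in young cells and 0, 1.77 and 9.91 in old cells, and was expressed in 17 of 52 young (32.7%, interval 20.3 to 47.1) and 30 of 62 old cells (48.4%, interval 35.5 to 61.4). Its mean level was 2.08 ± 3.11 (SD, 52 cells) and 2.75 ± 3.15 (62 cells), a difference of 0.67. The summed reads pointed the other way, with 77.1 CPM in young and 60.8 CPM in old cells, and 1 young cell, E3, held 42.3% of the young reads. Counted together, cells that expressed *Sun2* without *Sun1* numbered 15 of 52 young (28.8%, interval 17.1 to 43.1) and 2 of 62 old (3.23%, interval 0.393 to 11.2). Cells that expressed *Sun1* without *Sun2* numbered 13 young (25%, interval 14 to 38.9) and 23 old (37.1%, interval 25.2 to 50.3). The first pair of intervals did not overlap and the second did, but they cover counting error among cells of 1 mouse per age. This class was 1 of several combinations of the genes that were counted, and no such count over other gene pairs was made. Both genes were expressed in 4 young and 7 old cells, and neither in 20 and 30.

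Lamin transcripts themselves were sparse. *Lmna* had a median level of 0 in both ages and a highest level of 7.71 in young and 7.17 in old cells. It was expressed in 8 of 52 young (15.4%, interval 6.88 to 28.1) and 2 of 62 old cells (3.23%, interval 0.393 to 11.2), and 43 young and 58 old cells held no read of it. Its mean level was 0.77 ± 1.87 (SD, 52 cells) and 0.25 ± 1.22 (62 cells), a difference of -0.52. *Lmnb1* was expressed in 10 young (19.2%, interval 9.63 to 32.5) and 6 old cells (9.68%, interval 3.63 to 19.9), with a median of 0 in both ages, highest levels of 8.54 and 5.93 and mean levels of 0.89 ± 1.77 (SD, 52 cells) and 0.42 ± 1.31 (62 cells). *Lmnb2* was expressed in 7 young (13.5%, interval 5.59 to 25.8) and 6 old cells (9.68%, interval 3.63 to 19.9), with highest levels of 9.56 and 9.44 and mean levels of 0.88 ± 2.19 (SD, 52 cells) and 0.72 ± 2.10 (62 cells). For all 3 lamin genes the intervals of the ages overlapped.

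A few cells carried most of the lamin reads. The young cell B1 held 66.3% of the 1136 young *Lmna* reads and 82.6% of the 1619 young *Lmnb1* reads, and the young cell G3 held 62.2% of the 2785 young *Lmnb2* reads. In old cells E10 held 68.7% of the 556 *Lmna* reads, B2 33.5% of the 215 *Lmnb1* reads and E5 66% of the 4297 *Lmnb2* reads. Without the highest cell of each age, the log2 ratio of summed *Lmnb1* counts went from -2.70 to -0.77. For *Lmnb2* the summed reads were 19.2 CPM in young and 34.2 CPM in old cells, the reverse of its difference in mean level (-0.16). Of the young cells 35 of 52 (67.3%, interval 52.9 to 79.7) and of the old cells 48 of 62 (77.4%, interval 65 to 87.1) expressed no lamin gene at the limit used. *Lmna* together with a B-type lamin was found in 5 of 52 young cells and in 0 of 62 old cells, which allows a share of up to 4.84%. Only 2 old cells expressed *Lmna* at all. Every cell that expressed *Lmna* also expressed *Lbr*, 8 young and 2 old cells, while 40 young and 44 old cells expressed *Lbr* without *Lmna*. Since *Lbr* was expressed in 92.3% of all young and 74.2% of all old cells, these counts do not show a link between the genes. At this depth a cell without a lamin read cannot be told from a cell with few lamin transcripts.

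Compared per kilobase of exon, the mean CPM in young cells was 314 for *Lbr*, 155 for *Banf1*, 95.1 for *Tmpo*, 19.1 for *Sun1*, 8.27 for *Lmnb2*, 4.20 for *Sun2*, 3.36 for *Lmnb1* and 2.47 for *Lmna*. In old cells it was 165, 99.7, 43.6, 19.2, 6.90 and 1.12 for the first 6 in the same order, then 1.10 for *Lmna* and 0.848 for *Lmnb1*. The interquartile ranges over cells of all 7 neighbouring pairs in this order overlapped in each age, so the order describes means and not a separation of cells. A cell expressed a median of 3 of the 8 genes in either age, and the count went from 1 to 7 among young cells and from 1 to 5 among old cells.

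The cells were next separated by the mitotic entry genes *Ccna2*, *Ccnb1*, *Cdk1* and *Cdc25c*, since the envelope is dismantled and rebuilt in each division. At least 1 of these 4 was expressed in 27 of 52 young (51.9%, interval 37.6 to 66) and 13 of 62 old cells (21%, interval 11.7 to 33.2). The study names these 4 among cell cycle regulators expressed more often in young HSCs of the same data. The larger class in young cells therefore follows from the choice of genes and is not a separate result. Of the 8 genes, *Tmpo* differed most between the classes, with a mean level of 7.93 in young cells with a mitotic entry gene and 5.20 in those without, and 7.34 and 4.75 in old cells. *Lbr* had means of 9.60 and 7.68 in young and 7.26 and 6.26 in old cells. *Lbr* was expressed in 27 of 27 young cells with a mitotic entry gene, 21 of 25 without, 11 of 13 old cells with and 35 of 49 without.

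*Lmnb1* expression in young cells lay within the class with a mitotic entry gene, where 10 of 27 cells expressed it (37%, interval 19.4 to 57.6), against 0 of 25 in the other class, which allows a share of up to 12%. In old cells it was expressed in 2 of 13 and 4 of 49. *Banf1* had means of 6.91 and 5.44 in young cells with and without a mitotic entry gene, and 5.10 and 4.95 in old cells. *Sun1* stood the other way round, with means of 1.59 with and 2.62 without in young cells, and 2.19 and 2.91 in old cells. *Lmnb2* and *Sun2* differed in direction between the ages, with means for *Lmnb2* of 1.5 with and 0.21 without in young and 0 and 0.91 in old cells, where 0 of 13 and 6 of 49 cells expressed it, and for *Sun2* of 2.20 and 1.63 and then 0.62 and 0.78. Young cells with a mitotic entry gene also had more genes expressed, a median of 4614 against 3862, and the part of this in the levels was not tested. In old cells these medians were 3760 and 3939.

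**Figure D3:**
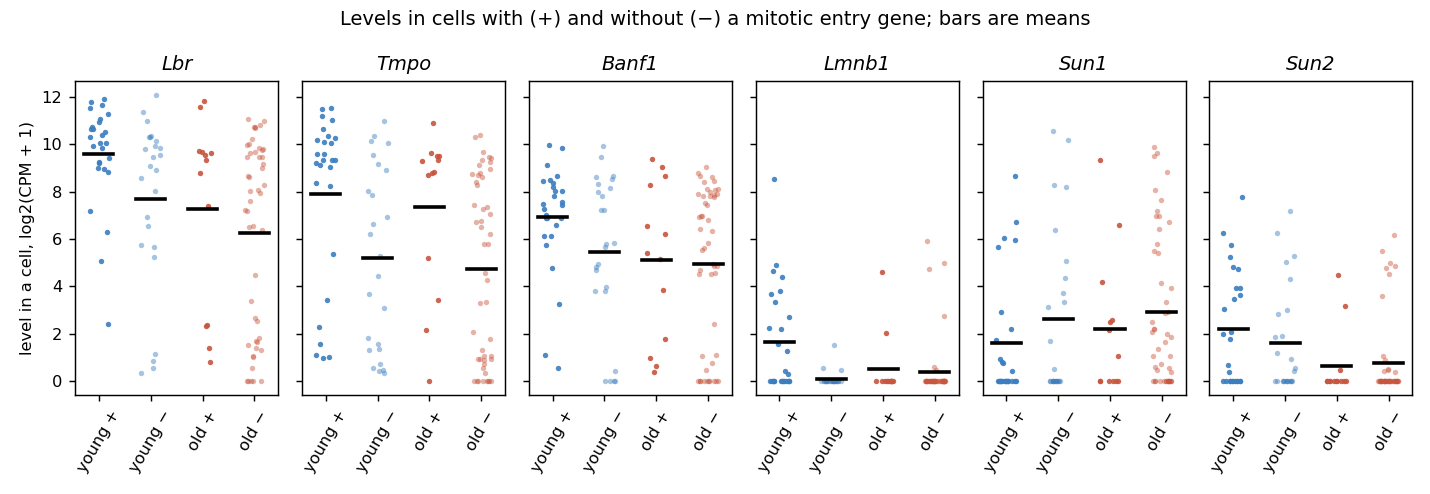
Points are cells and black bars means of the level, log2(CPM + 1), for 6 genes in young cells with (+, 27) and without (−, 25) an expressed mitotic entry gene and in old cells with (13) and without (49). *Tmpo* was higher in the + class of both ages, and *Lmnb1* was above the limit in no young cell of the − class.

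In the 74 cells that expressed none of the 4 mitotic entry genes, the age differences were smaller for most of the 8 genes. *Lbr* was the 1 gene of the 8 that was lower by at least 1 in old cells (-1.41), where 4.14% of all genes were lower and 7.47% higher by at least 1. The difference was -0.85 for *Sun2*, -0.49 for *Banf1*, -0.45 for *Tmpo* and -0.29 for *Lmna*. *Lmnb1* and *Lmnb2* had differences of 0.30 and 0.70 in these cells, opposite in sign to those over all cells used, and *Sun1* had 0.29. The median over the 8 genes was -0.37, against 0.02 over all genes. The cells compared here were 25 young and 49 old. In the 27 young and 13 old cells with a mitotic entry gene, *Lbr* was at -2.34, *Banf1* at -1.81, *Sun2* at -1.58 and *Lmnb2* at -1.50. In that class *Lmnb1* was at -1.12, *Tmpo* at -0.59, *Lmna* at -0.55 and *Sun1* at 0.60. How far the mixture of classes set the differences over all cells was not tested.

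**Figure D4:**
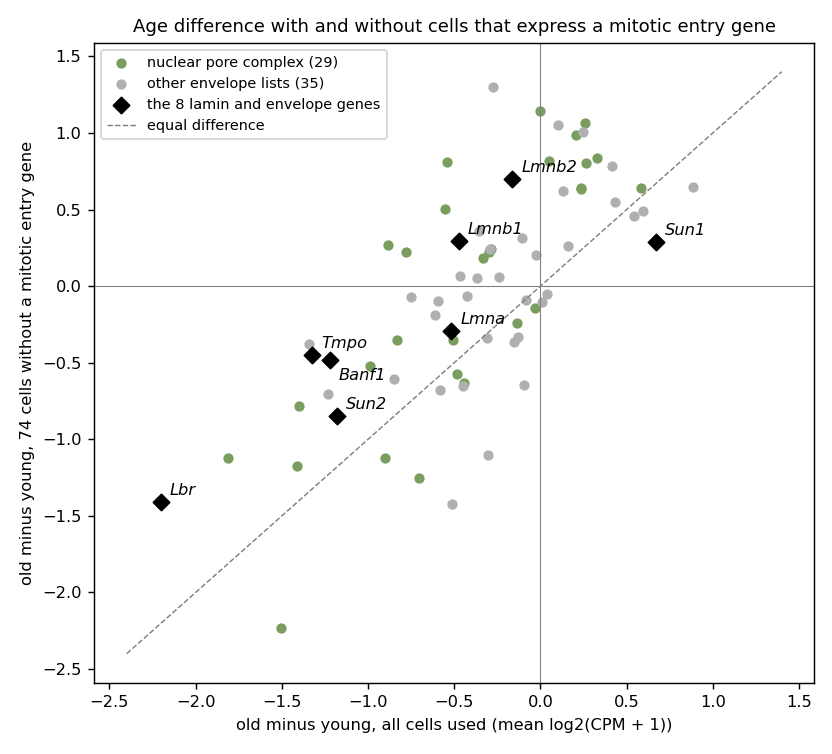
Each point is a gene, with old minus young in mean log2(CPM + 1) over the 114 cells used on the horizontal axis and over the 74 cells without a mitotic entry gene on the vertical axis. Diamonds are the 8 genes, green points 29 nuclear pore genes and grey points 35 other envelope genes. *Lbr* was the lowest diamond on both axes, and 50 of 72 points lay above the dashed line of equal difference.

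Over young cells, *Tmpo* and *Lbr* went with the mean level of 49 G2/M genes, from which the 8 genes were left out, and in old cells less clearly so. Pearson's r of *Tmpo* with this list was 0.54 over 52 young and 0.35 over 62 old cells (Spearman's rho 0.64 and 0.30), and that of *Lbr* was 0.42 and 0.27 (rho 0.55 and 0.29). Over genes expressed by 10% or more of the cells, the middle 90% had r between -0.16 and 0.36 among young and between -0.13 and 0.36 in old cells, so that the old values of both genes lay inside this range, as did that of *Sun1* (0.29, and 0.11 in young cells). With the G2/M list, r was 0.21 and 0.13 for *Lmnb1* and 0.22 and 0.155 for *Banf1*, inside this range in both ages. With the mean of 42 S-phase genes, r was 0.44 and 0.39 for *Tmpo*, 0.44 and 0.30 for *Lmnb1*, 0.41 and 0.24 for *Banf1* and 0.34 and 0.29 for *Lbr*. No range over all genes was computed for the S-phase list. These points share mouse, run and depth, and the number of genes expressed in a cell had r of 0.53 with *Tmpo* and 0.44 with *Lbr* in young cells and 0.22 and 0.20 in old cells. The G2/M list had a mean level of 2.74 in young and 1.79 in old cells, with 24 of its 49 genes lower by at least 1 where 4.49% of all genes were, and the S-phase list 2.80 and 1.81, with 22 of 42. With 20 megakaryocyte and platelet genes, whose mean level was 1.81 in young and 3.28 in old cells, *Lbr* had r of 0.17 and 0.33 and *Lmna* 0.28 and 0.09. That list holds *Clu*, *Selp*, *Sdpr*, *Itgb3*, *Fhl1* and *Tgm2*, which the study named as raised in old HSCs of these same data. Its higher mean in old cells is therefore not a separate result.

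Among themselves the 8 genes were weakly related, with a median r over the 28 pairs of 0.10 in young and 0.04 in old cells. The highest r was 0.56, between *Lmna* and *Lmnb1* in young cells, which was 0.36 without cell B1 and -0.07 in old cells. *Tmpo* and *Lbr* had r of 0.22 in young and -0.11 in old cells. Ranked by the mean of the young and old r over 9363 genes, the genes most like *Tmpo* were *Kif15* (a mitotic kinesin, 0.52 in young and 0.44 in old cells), *Birc5* (a subunit of the chromosomal passenger complex, 0.57 and 0.35) and *Top2a* (a DNA topoisomerase, 0.57 and 0.33). Those most like *Lbr* were *Smc2* (a condensin subunit, 0.30 and 0.53), *Top2a* (0.41 and 0.31) and *Nuf2* (a kinetochore subunit, 0.47 and 0.25). *Banf1* was followed by *Vkorc1* (0.49 and 0.38), *Atp5a1* and *Prdx1*, *Sun1* by *Zfp672* (0.46 and 0.38), *Il21r* and *Btaf1*, and *Sun2* by *Slc30a5* (0.41 and 0.33), *Ulk2* and *Aes*. The lamin genes were expressed in under 10% of old cells and were not ranked.

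The start regions of the genes are shown because *Lbr*, *Tmpo*, *Sun2* and *Sun1* share a sequence feature, whose part in the levels was not tested. A RefSeq start region on GRCm38.p6 was found for 7 of the 8 genes, and the 120 bases before the first listed start were searched for CCAAT on both strands (ATTGG on the reverse), the box bound by the factor NF-Y. In 4 of these 7 genes it occurred 2 times, and 4.91% of the first starts of all 27025 genes with an entry held 2 or more. It was 1 of 10 motifs searched, and motif and window were chosen after the matches had been seen, so the count is a description. The regions are chr1:181842402-181842521 on the minus strand for *Lbr*, chr10:91171620-91171739 on the minus strand for *Tmpo*, chr15:79742537-79742656 on the minus strand for *Sun2* and chr5:139200517-139200636 on the plus strand for *Sun1*. The full gene spans given above begin before the first listed start in *Tmpo*, *Sun1* and *Lmna*. The searched regions of *Tmpo* and *Lmna* therefore lie inside the gene span, and that of *Sun1* partly so. The *Sun1* region is not printed. Those of *Lbr*, *Tmpo* and *Sun2* are each written 5′ to 3′ along the gene with the boxes in capitals.
Lbr: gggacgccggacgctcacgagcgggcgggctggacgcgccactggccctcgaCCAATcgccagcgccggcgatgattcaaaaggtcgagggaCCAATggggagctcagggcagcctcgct
Tmpo: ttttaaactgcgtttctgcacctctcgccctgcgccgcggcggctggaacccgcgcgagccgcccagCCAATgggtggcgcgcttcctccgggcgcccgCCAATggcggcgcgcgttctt
Sun2: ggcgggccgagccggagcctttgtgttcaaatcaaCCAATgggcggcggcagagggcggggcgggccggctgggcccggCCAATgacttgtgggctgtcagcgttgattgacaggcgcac
With the base before the start counted as -1, the boxes begin at -68 and -28 in *Lbr*, -53 and -21 in *Tmpo*, -85 and -41 in *Sun2* and -97 and -15 in *Sun1*. Among these 4 genes, *Lbr*, *Tmpo* and *Sun2* were lower by at least 1 in old cells and *Sun1* was higher by 0.67. *Banf1*, *Lmna* and *Lmnb2* had no box in this window, and *Banf1* was also lower by at least 1 (-1.22). Further out, a CCAAT began at -185 before the first *Banf1* start and at -131 before the second *Lmna* start. On either strand, TTTGAA, a form of the cell cycle homology region, was found in the listed region around the first start of *Lbr* and *Sun2* and the second of *Tmpo*, and in 17.9% of the regions of all 32851 listed starts. A match of letters does not show that a factor binds there.

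For the wider envelope, 64 other genes in 7 lists were measured, all with a read. Of these, 45 were lower and 19 higher in mean level in old cells, where 8071 and 6943 of all 15014 genes were. The median difference of the 64 was -0.29. By at least 1, 6 of the 64 (9.38%) were lower, against 4.49% of all genes and 6.98% of those that 10% or more of the cells expressed, while 0 of the 64 were higher. In cells without a mitotic entry gene, 31 were lower and 33 higher, with a median of 0.05, and 7 were lower and 5 higher by at least 1, where 4.14% and 7.47% of all genes were.

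The nuclear pore list held 4 of the 6. *Nup210*, a membrane subunit of the pore, had mean levels of 5.54 in young and 3.73 in old cells and was expressed in 38 of 52 and 34 of 62 cells. *Seh1l* (2.89 and 1.38) and *Nup88* (3.56 and 2.15) are subunits of the pore scaffold and of its cytoplasmic side, and *Nup54* (2.31 and 0.90) of the central channel. Of the 29 pore genes 21 were lower and 8 higher in old cells, with a median of -0.44, where 8071 and 6943 of all 15014 genes were lower and higher. In cells without a mitotic entry gene the difference was -1.12 for *Nup210*, -2.23 for *Seh1l*, -1.18 for *Nup88* and -0.78 for *Nup54*, whereas the median of the list there was 0.22. These 4 were chosen by their difference over cells that include these, so this is not a separate check. Of the 29 pore genes, 5 were lower and 2 higher by at least 1 in these cells, where 4.14% and 7.47% of all genes were.

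Among partners of the 8 genes, *Cbx3*, an HP1 protein that binds silent chromatin, was expressed in every cell used and had mean levels of 11.04 in young and 9.81 in old cells. All 5 lamina-bound chromatin genes were lower in old cells, as were 8071 of all 15014 genes, with *Rb1* at -0.02 and *Cbx5* at -0.28. In cells without a mitotic entry gene the difference of *Cbx3* was -0.71, under the limit of 1, and *Cbx5*, another HP1 gene of this list that the G2/M list also holds, was at 1.30. *Nrm*, which encodes the inner membrane protein nurim, had means of 3.00 and 1.66 and was expressed in 23 of 52 and 14 of 62 cells, the 1 gene of 9 in its list past the limit of 1, with a difference of -0.38 in cells without a mitotic entry gene. No nesprin, the partners of the SUN proteins, differed by 1 over all cells used, with 1.74 and 0.88 for *Syne3* and 1.77 and 1.47 for *Syne2*. In cells without a mitotic entry gene all 3 were lower, *Syne1* at -0.05 and *Syne2* at -1.10, where 6595 of all 15014 genes were lower. Of the enzymes that process prelamin, *Fntb* (a farnesyltransferase subunit, 1.24 and 0.63) and *Rce1* (a CAAX protease, 0.96 and 0.38) differed most, and neither by 1. In the list of envelope reassembly genes and *Banf1* kinases these were *Vps4b* (an ATPase of membrane remodelling, 3.43 in young and 4.32 in old cells) and *Tor1b* (a torsin ATPase, 3.18 and 2.67), which was at -1.42 in cells without a mitotic entry gene. In those cells *Vrk1* and *Vps4a* of this list were at 1.01 and 1.05. Of its 11 genes 7 were higher and 4 lower in old cells there, with a median of 0.26 against 0.02 over all genes. *Dhcr7*, a sterol reductase of the same enzyme family as the membrane part of *Lbr*, had means of 1 and 0.63, and only it of 2 such genes was expressed in at least 10% of cells.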

How the data were processed

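The authors mapped 51 bp single reads to mm10 with TopHat2 2.0.10, allowed each read 1 alignment and used rpkmforgenes (version not given in the sources used here) for counting on the RefSeq annotation. The deposited values are raw counts for each gene in each cell. No source used here says whether strand was used in counting. Reads with several equally good positions, as from near-identical copies of a gene, were kept at 1 of them.

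For each cell CPM was taken over its summed counts, levels as log2(CPM + 1), and differences as old minus young means over cells. Cells were those within the methods' limits on mapped reads, mitochondrial share and detected genes (52 young, 62 old). Because each age is 1 mouse, no p-value was computed. Shares have exact Clopper-Pearson and summed reads exact Poisson intervals at 95%, and a share of 0 allows 3 cells of those examined. Exon lengths were the union of exons of GENCODE M21 transcripts with a RefSeq mRNA, and start regions came from RefSeq (GRCm38.p6).

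The 8 genes and all lists were chosen with earlier results of these data known. Named besides them were list genes that differed by at least 1 (or the 2 with the largest difference among those expressed in at least 10% of cells), and the 3 genes most correlated with each of the 8 that 10% or more of both ages' cells expressed. The steps were tested on simulated data. Alternatives covered the cells used, a pseudocount of 0.1 CPM, summed counts, TMMwsp factors (edgeR 4.0.16), poscounts factors (DESeq2 1.42.0) and thinned counts (250000 reads a cell), and 1 read or a level of 4 as the limit of expression. Software was R 4.3.3 and, in Python 3.11.15, scipy 1.17.1, numpy 2.4.6 and pandas 2.3.3.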

Additional observations from a re-analysis of the deposited data

How the results depend on the processing

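No paired analysis was possible because each age is 1 mouse and no test was made, and no mouse could be left out. A difference was called moved when the ratio it stands for changed by 1.5 times or more, and a share when it left its 95% interval in either age. With every sequenced cell, cells of at least 1000000 counted reads, TMMwsp or poscounts factors, or thinning to 250000 reads, 0 of the 8 differences in mean level moved, although in the deep cells *Lmnb2* was at 0.10 and *Banf1* at -0.91. With a pseudocount of 0.1 CPM, *Sun1* was at 1.26 and *Sun2* at -2.13. In cells with no mitotic entry gene, the differences were 0.30 (*Lmnb1*), 0.70 (*Lmnb2*), -1.41 (*Lbr*), -0.45 (*Tmpo*) and -0.49 (*Banf1*). As log2 ratios of summed counts they were -2.70 (*Lmnb1*), 0.84 (*Lmnb2*), -0.97 (*Lbr*), -0.34 (*Sun1*), -2.5 (*Sun2*) and -0.57 (*Banf1*), and without the highest cell of each age that of *Lmnb1* was -0.77. Counting any cell with at least 1 read as expressing gave differences in percentage points of -19.8 (*Lmnb1*), -9.49 (*Lmnb2*), -8.06 (*Lbr*), 20.0 (*Sun1*), -30.0 (*Sun2*), -14.5 (*Tmpo*) and -8.44 (*Banf1*), and a limit of 4 gave -1.24 (*Lmnb1*), 5.96 (*Sun1*) and -9.86 (*Sun2*). Among genes expressed in at least 10% of cells, 6.98% were lower and 6.24% higher by at least 1. The r of *Lmna* with *Lmnb1* in young cells without B1 (0.36) was added after the data had been seen. The causes of these moves were not tested.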
